A study of Mus musculus with 10 samples.

Results

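Csf1 and Il34 encode the pair of ligands of the macrophage receptor CSF1R, and the open chromatin around both genes was followed here in 10 ATAC-seq libraries of mouse bone marrow stroma. ATAC-seq uses a transposase to cut accessible DNA, so that peaks of reads mark open sites. A peak was taken as a member when its summit, the base with the highest pileup of overlapping tags, lay in the body of Csf1 or Il34 or within 50 kb on either side. This gave 354 of the 614863 deposited peaks, with 198 around Csf1 and 156 around Il34. Overlapping peaks of different libraries were merged into 90 sites, 47 around Csf1 and 43 around Il34, of 201290 such regions in the genome.

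All groups were of strain C57BL/6J. The rMSC (n = 3), which the labels call revitalized MSCs, were stroma that had received 5 genes by transduction, Irf3, Irf7, Klf7, Ostf1 and Xbp1. Control stroma (n = 3) had been transduced with a control vector. Scf-GFP-positive (n = 2) and Scf-GFP-negative (n = 2) stroma was freshly sorted as CD45-, Ter119- and CD31- cells and carried no transduced gene. The growth protocol, which the labels repeat for every library, seeds Scf-GFP-positive cells in alpha-MEM with 20% fetal bovine serum and 10 ng/ml FGF-basic. It was read as that of rMSC and control stroma, called cultures below, since the other groups are labelled freshly sorted. The labels do not name separate animals or cultures, and p-values below measure the spread between libraries, which may be technical.

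CSF1, also called M-CSF, is the main growth factor of the monocyte, macrophage and osteoclast lineages. IL-34 is a second ligand of CSF1R with no sequence likeness to CSF1, and in the mouse it is best known for keeping microglia and Langerhans cells. In bone marrow, stromal and bone-forming cells are a known source of CSF1, which acts on the CSF1R-bearing cells beside them. Csf1 lies on chr3:107741048-107760469 on the minus strand, with the annotated start at 107760469. Il34 lies on chr8:110741829-110805949, and its sites are placed by their distance from the lower or the higher coordinate end of that body. All positions are mm10. The lncRNA gene Gm40121 spans the whole of Csf1, and Ahcyl1, which encodes a regulator of inositol phosphate signalling, starts inside the Csf1 window. The Il34 window also holds the whole of Mtss2, which encodes an actin-binding membrane protein, the whole of Sf3b3, a subunit of the splicing machinery, and the ends of Vac14 and Cog4. A summit belongs to the window and not to one promoter.

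The 250 bases before the Csf1 start are shown because a site lay there. No Il34 start was among the promoter sequences used, so a site at one could not be looked for. The 250 bases before a Mtss2 start, which lies inside the annotated Mtss2 body, and before the Gm15894 start are shown because sites of the Il34 window lay there. The sequences are from RefSeq on GRCm38.p6, they read 5′ to 3′ on the strand of the gene, and capitals mark CpG dinucleotides.
Csf1 promoter, chr3:107760470-107760719, minus strand: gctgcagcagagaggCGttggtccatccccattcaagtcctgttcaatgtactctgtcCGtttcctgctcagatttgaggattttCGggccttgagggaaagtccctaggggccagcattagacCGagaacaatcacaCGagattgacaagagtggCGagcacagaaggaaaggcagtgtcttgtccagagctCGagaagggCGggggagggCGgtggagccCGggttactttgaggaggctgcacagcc
Mtss2 promoter, chr8:110721226-110721475, plus strand: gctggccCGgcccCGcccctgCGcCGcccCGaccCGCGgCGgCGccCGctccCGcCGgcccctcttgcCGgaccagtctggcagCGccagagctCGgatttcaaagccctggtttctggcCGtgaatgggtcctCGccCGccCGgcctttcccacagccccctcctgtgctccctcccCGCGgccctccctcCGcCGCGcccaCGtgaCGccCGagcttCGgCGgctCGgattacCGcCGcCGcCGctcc
Gm15894 promoter, chr8:110755396-110755645, plus strand: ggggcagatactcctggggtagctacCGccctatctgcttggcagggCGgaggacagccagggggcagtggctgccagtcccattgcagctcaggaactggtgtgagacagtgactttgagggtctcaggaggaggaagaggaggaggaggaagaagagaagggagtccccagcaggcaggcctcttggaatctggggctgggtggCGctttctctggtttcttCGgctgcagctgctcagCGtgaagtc
The Csf1 window had 56.4% GC and 10 CpG, the Mtss2 window 77.2% GC and 34 CpG, and the Gm15894 window 61.2% GC and 5 CpG, where the median of 32851 promoters was 52.4% GC and 6 CpG. None of the 3 held TGANTCA (AP-1, in 6.75% of all promoters), TGTGGT (RUNX, 14.0%), GGAATG (TEAD, 12.6%), TTGCNNAA (CEBP, 9.56%), or the EBF (0.779%) or IRF (2.98%) motif, on either strand. This says only that these letters are not in these windows.

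The deposited lists held 66282 to 78489 peaks in rMSC, 48417 to 75376 in control stroma, 47679 and 68298 in the Scf-GFP-positive libraries, and 46947 and 39936 in the Scf-GFP-negative libraries. Read totals are not in peak lists, so depth is unknown, and a site missing from a list can be open but undetected. Counts per window therefore come from lists of equal size, the 39912 strongest peaks of each library. The lowest −log10 q kept in these lists was 4.67 to 5.80 in rMSC, 4.62 to 5.13 in control stroma, 4.27 and 4.29 in the Scf-GFP-positive libraries, and only 2.65 and 2.10 in the Scf-GFP-negative libraries. Scf-GFP-negative lists thus reach down to weaker peaks than the others. The whole pileups that the deposited fold values give back are printed as tags and are not scaled for depth, and 0 means that no peak was listed. Replicate 1 of each group was sequenced on flow cell AHY33MBCXX and the others on AC99CPACXX.

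Both windows held many peaks in Scf-GFP-positive stroma and few in Scf-GFP-negative stroma. Around Csf1, the lists of equal size held 17 and 10 summits in Scf-GFP-positive libraries, against 2 and 2 in Scf-GFP-negative libraries. Around Il34 they held 15 and 12 summits in Scf-GFP-positive libraries, against 2 and 4 in Scf-GFP-negative libraries. The groups did not overlap at either gene. On the log2(summits + 0.5) scale the difference was 2.44 ± 0.25 for Csf1 (SE, n = 2 and 2, adjusted p = 0.00021) and 2.05 ± 0.26 for Il34 (adjusted p = 0.000632), in limma across 15430 loci of protein-coding genes with Benjamini-Hochberg adjustment. Over all tested loci, 13.2% were higher in Scf-GFP-positive stroma and 18.6% lower, with a median difference of -0.22. Both calls were lost when these 4 libraries were fitted alone, with adjusted p of 0.0708 for Csf1 and 0.0964 for Il34 in limma. Within flow cell AHY33MBCXX, with 1 library per group, the difference was 2.81 for Csf1 and 2.63 for Il34. Within AC99CPACXX it was 2.07 for Csf1 and 1.47 for Il34.

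The direction was the same where the starts of neighbouring genes played no part. Without summits within 1 kb of other genes' starts, the Csf1 window kept 16 and 9 summits in Scf-GFP-positive libraries, against 1 and 1 in Scf-GFP-negative libraries. The Il34 window kept 12 and 10 in Scf-GFP-positive libraries, against 0 and 2 in Scf-GFP-negative libraries. The body of Il34 itself held 7 and 5 summits in Scf-GFP-positive libraries, against none in Scf-GFP-negative libraries (adjusted p = 4.25e-05, limma). That of Csf1 held 4 and 2 summits in Scf-GFP-positive libraries, against 0 and 1 in Scf-GFP-negative libraries (1.95 ± 0.54, adjusted p = 0.0204, limma). Over the bodies tested, 24.8% were higher in Scf-GFP-positive stroma. All deposited peaks gave the same picture, with at most 2 summits around Csf1 and 4 around Il34 in a Scf-GFP-negative library.

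Other cell markers moved with this difference. The summits within 10 kb of 12 stromal markers summed to 60 and 72 in Scf-GFP-positive libraries, against 10 and 13 in Scf-GFP-negative libraries. Those of 12 blood cell markers summed to 18 and 22 in Scf-GFP-positive libraries, against 44 and 59 in Scf-GFP-negative libraries, although both groups were sorted as CD45- and Ter119-. The sums over 17 macrophage markers were 17 to 18 in Scf-GFP-positive libraries, against 16 to 18 in Scf-GFP-negative libraries, and those over 10 endothelial markers 11 and 12, against 13 and 24. Of the 17 macrophage markers, 6 had a summit in the body in Scf-GFP-positive stroma and 4 in Scf-GFP-negative stroma, with body sums of 8 to 10 and of 6 to 8. Adgre1, C1qa, C1qb, C1qc, Fcgr1, Marco and Siglec1 had none there in any group. In bulk libraries fewer cells of a type and less signal per cell cannot be told apart, and the part of these markers in the result was not tested.

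**Figure D1:**
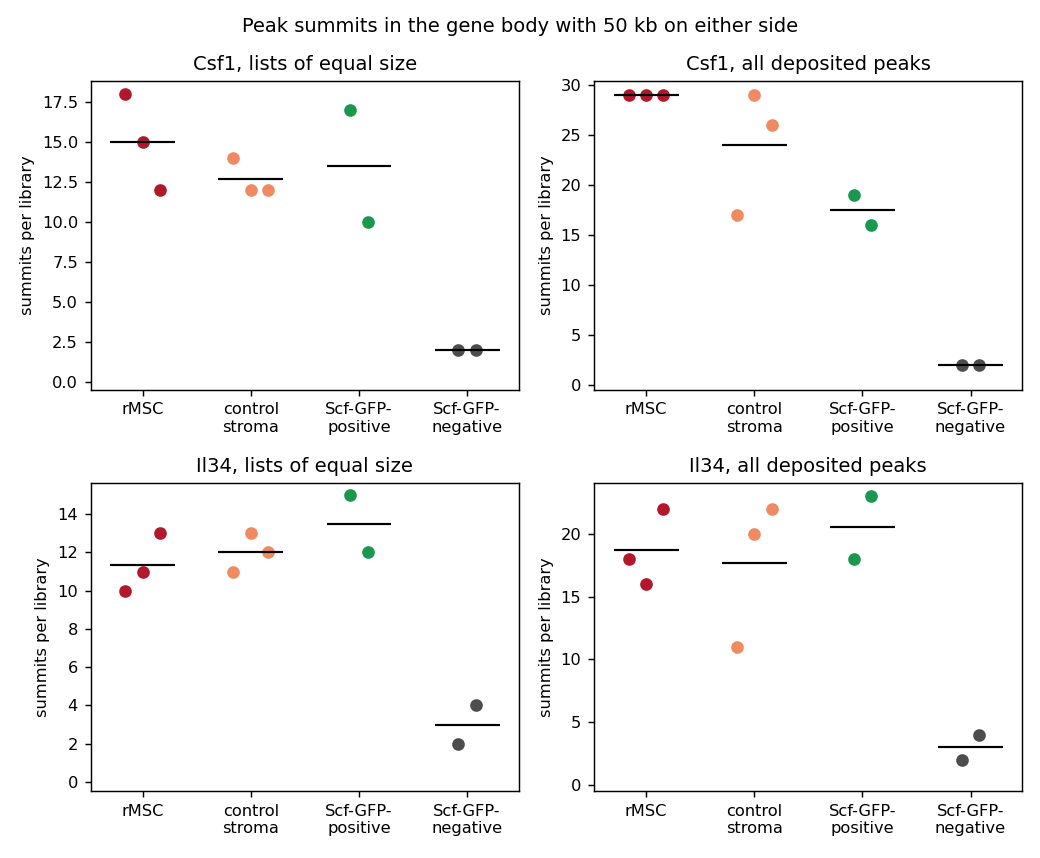
Peak summits per library (vertical axis, count) in the Csf1 window (upper row) and the Il34 window (lower row), from lists of equal size (left) and from all deposited peaks (right). Points are libraries and lines are group means. In all 4 panels the Scf-GFP-negative libraries, at 2 to 4 summits, lie below every other library, which held 10 to 29.

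In lists of equal size the cultures held about as many summits as the sorted Scf-GFP-positive stroma. Around Csf1, rMSC libraries held 18, 15 and 12 summits and control libraries 14, 12 and 12, against 17 and 10 in Scf-GFP-positive libraries. Around Il34, rMSC held 10, 11 and 13 and control libraries 11, 13 and 12, against 15 and 12 in Scf-GFP-positive libraries. The groups overlapped in each of these comparisons. With all deposited peaks, which are not matched for list length, the Csf1 window held 29, 29 and 29 summits in rMSC, against 19 and 16 in Scf-GFP-positive libraries, with no overlap (0.72 ± 0.24, adjusted p = 0.0675, limma), where the median of all loci moved by 0.26.

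None of the 3 comparisons with cultures passed at either gene in limma with Benjamini-Hochberg adjustment. For rMSC over control stroma the difference was 0.22 ± 0.21 for Csf1 (95% interval -0.24 to 0.68, adjusted p = 0.613) and -0.08 ± 0.21 for Il34 (-0.56 to 0.39, adjusted p = 0.872), where 1.53% of all loci were higher and 1.14% lower. For control over Scf-GFP-positive stroma it was -0.05 ± 0.23 for Csf1 (-0.56 to 0.47, adjusted p = 0.921) and -0.16 ± 0.24 for Il34 (-0.69 to 0.38, adjusted p = 0.703), where 5.91% of loci were higher and 6.12% lower. For rMSC over Scf-GFP-positive stroma it was 0.17 ± 0.23 for Csf1 (-0.34 to 0.69, adjusted p = 0.646) and -0.24 ± 0.24 for Il34 (-0.78 to 0.29, adjusted p = 0.525), where 8.45% were higher and 7.35% lower. These intervals leave room for changes of either sign. The last 2 comparisons share the Scf-GFP-positive libraries. Within flow cell AHY33MBCXX, with 1 library per group, rMSC over control stroma was 0.35 for Csf1 and -0.13 for Il34, control over Scf-GFP-positive stroma -0.27 and -0.43, and rMSC over Scf-GFP-positive stroma 0.08 and -0.56. Within AC99CPACXX the same values were 0.16 and -0.06, 0.25 and 0.06, and 0.41 and -0.00463.

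The gene bodies were then counted apart from the flanks. In the Csf1 body, lists of equal size held 6, 6 and 4 summits in rMSC, against 2, 1 and 2 in control stroma, with 4 and 2 for Scf-GFP-positive stroma. Among all deposited peaks the body held 15, 15 and 13 summits in rMSC, against 4, 8 and 7 in control stroma and 3 to 4 in Scf-GFP-positive stroma. The rMSC libraries stood above every control library in both counts. In the flank at lower coordinates beyond the 3′ end of Csf1, lists of equal size held 6, 4 and 3 summits in rMSC, against 8 in each control library, with 9 and 5 for Scf-GFP-positive stroma. The peaks of this flank covered 4797, 5297 and 3795 bases in rMSC, against 3776, 5119 and 4281 in control stroma, which overlap, so the lower number of summits in rMSC went with wider peaks. The flank was not tested on its own.

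The larger number of summits in the Csf1 body did not pass as a difference between rMSC and control stroma. In the body alone the difference was 1.45 ± 0.44 with lists of equal size (adjusted p = 0.108, limma), where 1.56% of bodies were higher, and 1.17 ± 0.41 with all deposited peaks (adjusted p = 0.252), where 0.506% were higher. Against Scf-GFP-positive stroma it was 0.78 with lists of equal size (adjusted p = 0.289), where 10.8% were higher, and 1.90 ± 0.46 with all deposited peaks (adjusted p = 0.0274, limma), where 9.29% were higher. Counting bases instead of summits gave a call. Peaks of equal-size lists covered 13062, 11839 and 9932 bases of the Csf1 window in rMSC, against 7053, 7968 and 7505 in control stroma, with 9082 and 6718 for Scf-GFP-positive stroma. The rMSC libraries covered more bases than all the others. The log2 difference in bases was 0.59 ± 0.17 over control stroma (adjusted p = 0.0249, limma), where 11.2% of loci were higher, and 0.53 ± 0.19 over Scf-GFP-positive stroma (adjusted p = 0.0447), where 10.5% were higher. At Il34 the body held 3, 4 and 5 summits in rMSC, against 4, 6 and 5 in control stroma, which overlap. Its log2 difference in bases was 0.16 for rMSC over control stroma (adjusted p = 0.636, limma). The stromal marker sums were 43 to 51 in rMSC and 54 to 67 in control stroma, and the part of this in the Csf1 result was not tested.

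**Figure D2:**
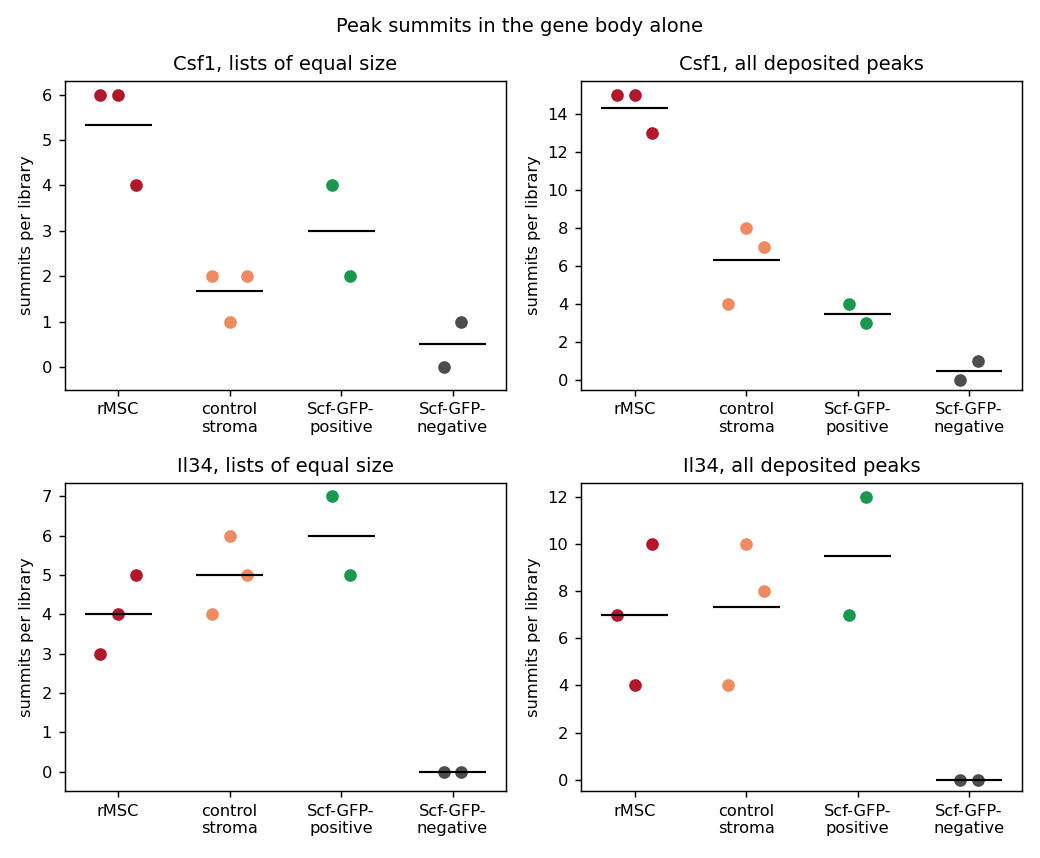
Peak summits per library (vertical axis, count) in the gene body alone, for Csf1 (upper row) and Il34 (lower row), from lists of equal size (left) and all deposited peaks (right), with group means as lines. In Csf1 the rMSC libraries lie above all control libraries, at 4 to 6 against 1 to 2 on the left and 13 to 15 against 4 to 8 on the right, while in Il34 they overlap.

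Single sites were described by the libraries that carry them and were not tested, since the tags at their summits are not scaled for depth. Of the 47 Csf1 sites, 20 were carried by exactly 1 library, and of the 43 Il34 sites 16, where 51.5% of all regions were. Every Scf-GFP-positive and no Scf-GFP-negative library carried 8 Csf1 and 9 Il34 sites, where 7.72% of all regions were of that kind. In lists of equal size the count was 5 for each gene, where 9.68% of regions were of that kind. The reverse held for 0 sites at either gene, where 2.19% of regions did so. Every library outside Scf-GFP-negative stroma, and none inside it, carried 5 Csf1 and 3 Il34 sites, where 2.15% of regions did so.

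The Csf1 start was open in 9 of the 10 libraries. This site, chr3:107759752-107760947, had its median summit 185 bp inside the gene and covers the promoter sequence printed above. It reached 19, 19 and 20 tags in rMSC, 19, 17 and 16 in control stroma, and 29 and 22 in Scf-GFP-positive stroma, against 0 and 6 in Scf-GFP-negative stroma. The strongest site of the window served as a yardstick inside the same libraries. At the starts of Ahcyl1 and Gm40121, chr3:107695428-107698155, all 10 libraries carried a peak, with 30, 30 and 30 tags in rMSC, 33, 30 and 28 in control stroma, 40 and 51 in the Scf-GFP-positive libraries, and 33 and 37 in the Scf-GFP-negative libraries. The Scf-GFP-negative libraries thus had 33 or more tags at the neighbour's promoter and at most 6 at that of Csf1. Regions carried by all 10 libraries made up 5.24% of the genome's total.

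Upstream of Csf1, 5 sites were carried by at least 1 library of each of rMSC, control and Scf-GFP-positive stroma, and 3 of them by every library of these groups. The nearest, chr3:107769610-107770240, lay 9467 bp before the start and reached 6 to 9 tags in rMSC, 8 to 12 in control stroma and 7 to 8 in Scf-GFP-positive stroma. The next, chr3:107793223-107794183, lay 33147 bp before the start, with 15, 13 and 21 tags in rMSC, 9, 12 and 9 in control stroma, and 16 and 13 in Scf-GFP-positive stroma. At chr3:107796389-107797276, 36356 bp before the start, rMSC reached 15, 10 and 14 tags, above 8, 9 and 6 in control stroma and 7 and 6 in Scf-GFP-positive stroma. All 5 were absent from both Scf-GFP-negative lists. The 3 were of the kind that made up 2.15% of all regions, and the share for the kind of the 5 was not computed.

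Of the 47 Csf1 sites, 2 were carried by every rMSC library and by no library of any other group, where 2.12% of regions were. The stronger, chr3:107801137-107801862, lay 40941 bp before the Csf1 start and had 9, 14 and 9 tags in the rMSC libraries. It was in the equal-size list of each of them. The other, chr3:107749148-107749800, lay 11069 bp inside the gene and was weak, with 8, 6 and 4 tags and a place in 1 equal-size list. Both also make up the sites of every rMSC and no control library, where 2.75% of regions are of that kind, and no Il34 site was. In lists of equal size 3 Csf1 sites and 1 Il34 site were in every rMSC and no control list, where 3.07% of regions were. No site of either gene was carried by every control and no rMSC library, where 2.58% of regions were.

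The body of Csf1 held 18 sites, of which rMSC libraries carried 16, control libraries 10, Scf-GFP-positive libraries 4 and Scf-GFP-negative libraries 1. Of the 16, 7 were carried by no other group. These counts come from all deposited lists, which differ in length, and the sorted groups have 2 libraries each. Shares over all regions were not computed for them. Of the 7, chr3:107749148-107749800 and chr3:107752773-107753234 were each in 1 equal-size list and the others in none. Apart from the start, most sites of the body were weak. At chr3:107750066-107752151, 9223 bp inside the gene, the rMSC libraries reached 9, 7 and 7 tags, against 0, 0 and 5 in control stroma and none in sorted stroma, and this site was in all 3 rMSC lists of equal size and no other. A site near the 3′ end, chr3:107742942-107744875, was shared and ran the other way, with 10, 10 and 7 tags in rMSC and 8, 6 and 8 in control stroma, against 21 and 18 in Scf-GFP-positive stroma.

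Just beyond the 3′ end of Csf1 a broad site, chr3:107737402-107741165, was carried by all 8 libraries outside Scf-GFP-negative stroma, but with different summits. A summit near 107738004 had 23, 23 and 21 tags in rMSC, against 8, 10 and 11 in control stroma, 0 and 6 in the Scf-GFP-positive libraries and none in the Scf-GFP-negative ones. The rMSC libraries were the highest there and did not overlap with the others. Nearer to the gene, at 107740741, a wider peak of each of the 3 rMSC libraries lay over the position with its single summit elsewhere, so the position was open there and its own tags are not listed. Control stroma had a separate summit there with 10, 9 and 21 tags, and Scf-GFP-positive stroma with 7 and 7. The case beside the Ahcyl1 start was different. Near 107697804 no rMSC library had a peak over the position, against 11, 10 and 14 tags in control stroma and 15 and 12 in Scf-GFP-positive stroma. These summits were singled out after their values were seen.

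In the Csf1 window 1 site was carried by all 6 cultured libraries and listed in no sorted library, at chr3:107706996-107707788, with 8, 5 and 5 tags in rMSC and 11, 21 and 14 in control stroma. Over the genome, 3.17% of regions were carried by all 6 cultured and no sorted library. Every rMSC and no Scf-GFP-positive library carried 7 Csf1 sites, where 8.65% of regions were of that kind, and every control and no Scf-GFP-positive library carried 2, where 6.77% were. The reverse, a site of both Scf-GFP-positive libraries that no control library or no rMSC library carried, did not occur around Csf1.

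**Figure D3:**
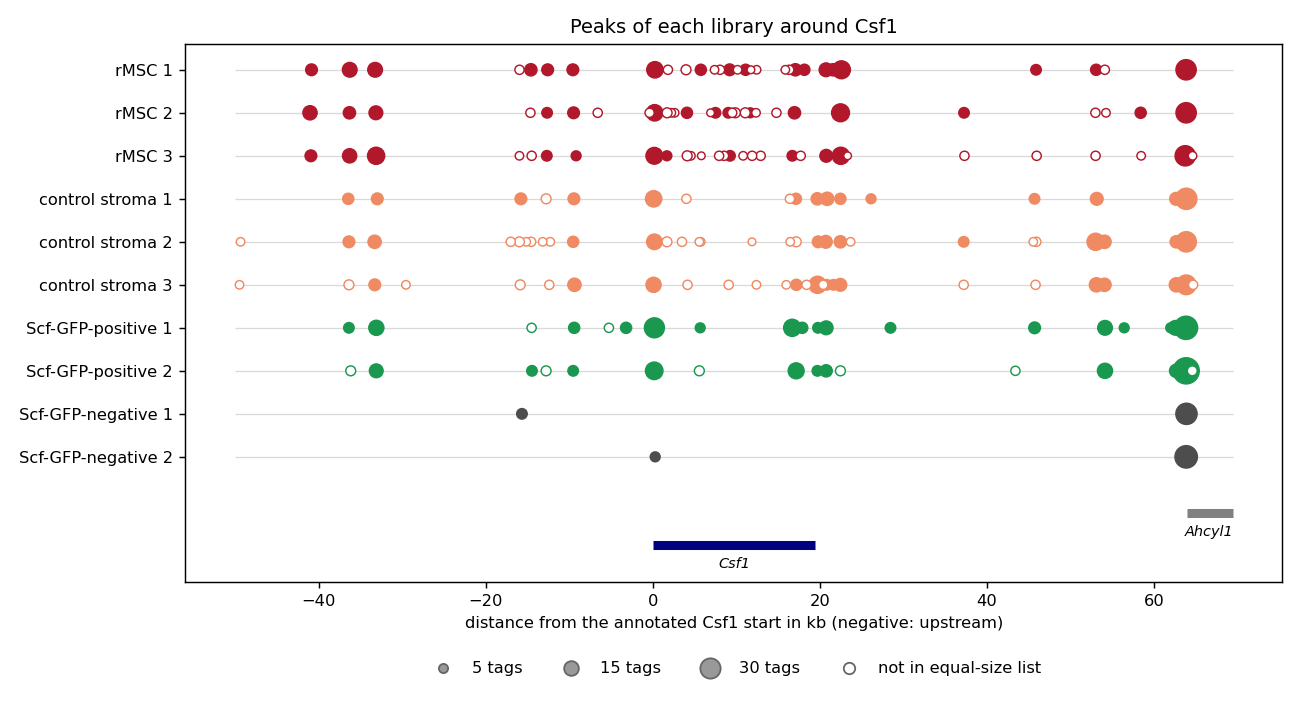
Every deposited peak of the Csf1 window, by library (rows) and by distance of its summit from the annotated Csf1 start in kb (horizontal axis, negative values upstream). Circle area grows with the tags at the summit, open circles are peaks outside the equal-size lists, and bars show the Csf1 and Ahcyl1 bodies. The Scf-GFP-negative rows hold 2 peaks each, and the rMSC rows hold 13 to 15 summits inside the Csf1 body.

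At Il34 no site had its median summit within 1 kb of either end of the gene body. The nearest inside lay 1237 bp from the lower end in 1 Scf-GFP-positive library, and the nearest outside 2114 bp beyond the higher end in 1 Scf-GFP-negative library. The sites that most libraries shared lay instead inside the body and in the genes beside it. At this Mtss2 start the site chr8:110720886-110722284 was carried by 9 libraries. Its summit near 110721383, in the promoter printed above, was in 8 of them. There rMSC had 17, 14 and 11 tags, control stroma 20, 14 and 15, and Scf-GFP-positive stroma 19 and 15. Neither Scf-GFP-negative library had a summit there. The 7 tags of Scf-GFP-negative replicate 1 lay at a separate summit of the site, near 110722214. At the shared start of Sf3b3 and Cog4, chr8:110846355-110847551, all 10 libraries carried a peak. It had 9, 9 and 9 tags in rMSC, 12, 12 and 5 in control stroma, 11 and 14 in the Scf-GFP-positive libraries, and 11 and 18 in the Scf-GFP-negative libraries.

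The strongest site of the Il34 window lay in Vac14, a gene for a scaffold of lipid kinase regulation on endosomes. This site, chr8:110715703-110716804, lay 25589 bp below the Il34 body and reached 38, 30 and 35 tags in rMSC, 28, 29 and 19 in control stroma, and 20 and 15 in Scf-GFP-positive stroma, against none in Scf-GFP-negative stroma. The rMSC libraries were the highest, each above all others. In the same gene, chr8:110710780-110712002 was carried by Scf-GFP-positive libraries alone, with 19 and 23 tags.

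That site was 1 of 4 Il34 sites carried by both Scf-GFP-positive libraries and no other, where 2.31% of regions were of that kind and no Csf1 site was. The other 3 were weaker, at 5 to 12 tags, and 2 of them lay in the Il34 body, at chr8:110774545-110775185 and chr8:110791142-110792204. Both Scf-GFP-positive and no control library carried 5 Il34 sites (3.94% of regions), and both Scf-GFP-positive and no rMSC library also 5 (4.57% of regions). Scf-GFP-positive stroma carried 14 of the 15 sites in the Il34 body, rMSC 8, control stroma 8 and Scf-GFP-negative stroma none. Of the 14, 5 were carried by no other group. These counts are also from all deposited lists, which differ in length, and shares over all regions were not computed for them.

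Inside the Il34 body 3 sites were carried by all 6 cultured libraries and by 1 of the 2 Scf-GFP-positive libraries. The share of all regions of that kind was not computed, so the count is a description only. The strongest, chr8:110788835-110790609, lay 16683 bp inside the higher end, with 21, 27 and 22 tags in rMSC and 17, 18 and 13 in control stroma, against 7 and 0 in Scf-GFP-positive stroma. At chr8:110779840-110780625 the values were 9, 10 and 14 in rMSC and 16, 15 and 12 in control stroma, against 9 and 0 in Scf-GFP-positive stroma. At chr8:110792843-110794478 they were 8, 10 and 9 in rMSC and 15, 9 and 12 in control stroma, against 0 and 10 in Scf-GFP-positive stroma. The rMSC libraries were above all control libraries at the first of these, and overlapped with them at the others.

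A site inside the Il34 body at the start of the lncRNA gene Gm15894, chr8:110754619-110755846, had 6, 15 and 19 tags in rMSC, against 0, 0 and 4 in control stroma, 0 and 5 in the Scf-GFP-positive libraries and none in the Scf-GFP-negative ones. The site contains the Gm15894 promoter printed above, but the 6, 15 and 19 tags were at a summit near 110754960, before that sequence. A separate summit near 110755438, inside the sequence, had 5, 0 and 7 tags in rMSC and 0, 0 and 4 in control stroma, which overlap. Over the whole site the rMSC libraries were the highest, but only 2 of the 3 carried it in their equal-size lists.

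Beyond the higher end of Il34 the order of rMSC and control stroma was turned round. At chr8:110808332-110809188, 2839 bp beyond the end and inside the lncRNA gene Gm15895, rMSC reached only 5, 4 and 5 tags, against 30, 25 and 23 in control stroma and 12 and 15 in Scf-GFP-positive stroma. No rMSC library carried it in a list of equal size, where 3.46% of regions of those lists were carried by every control and no rMSC library. At chr8:110809826-110810425, 4181 bp beyond the end, rMSC reached 11, 11 and 9 tags, against 21, 20 and 22 in control stroma and 6 and 15 in Scf-GFP-positive stroma. At both sites every rMSC library was below every control library, and Scf-GFP-negative libraries listed no peak.

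In the Il34 window 2 sites were carried by all 6 cultured libraries and listed in no sorted library, both inside Sf3b3. At chr8:110815289-110815869 rMSC reached 12, 13 and 11 tags and control stroma 21, 23 and 12, against none in sorted stroma, and at chr8:110824850-110825287 rMSC reached 4, 11 and 7 and control stroma 6, 4 and 9. Every rMSC and no Scf-GFP-positive library carried 4 Il34 sites, and every control and no Scf-GFP-positive library 2, where 8.65% and 6.77% of regions were of these kinds.

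**Figure D4:**
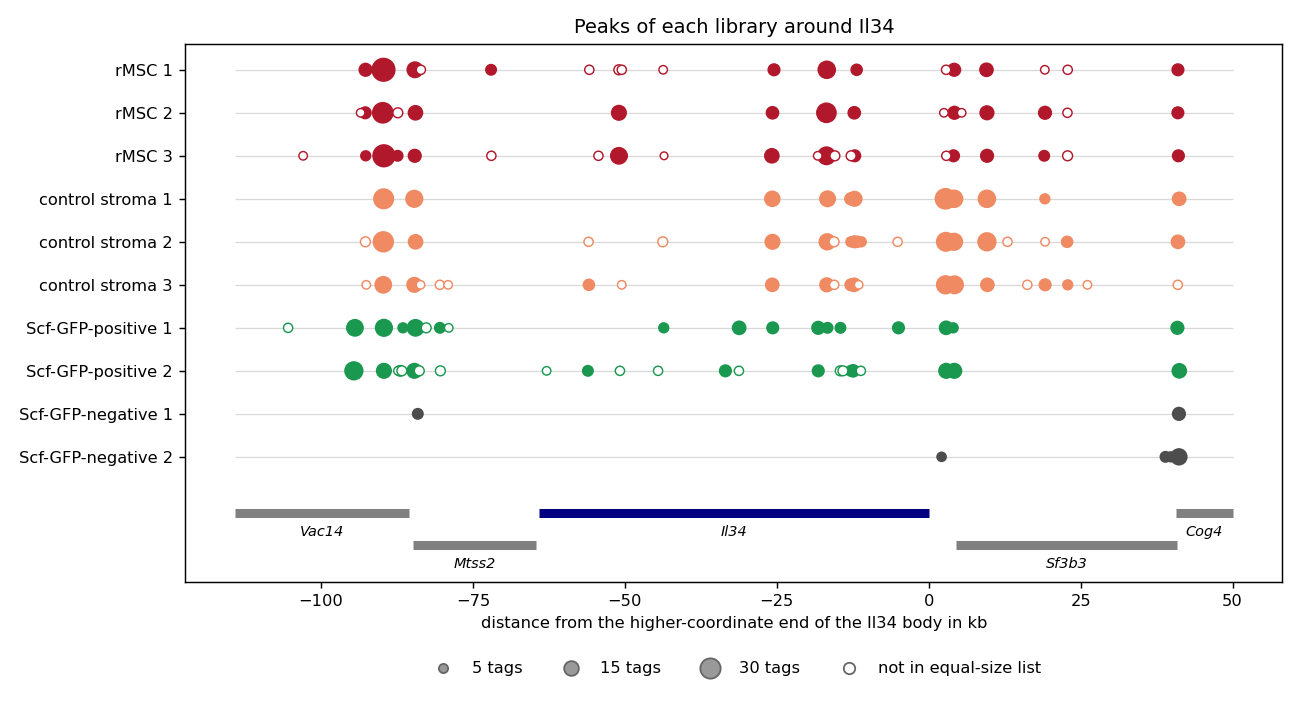
Every deposited peak of the Il34 window, by library (rows) and by distance of its summit from the higher-coordinate end of the Il34 body in kb (horizontal axis). Circle area grows with the tags at the summit, open circles are peaks outside the equal-size lists, and bars show the protein-coding bodies. The Scf-GFP-negative rows hold 2 and 4 peaks and none inside Il34, and just beyond the end the control circles are larger than those of rMSC.

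**Figure D5:**
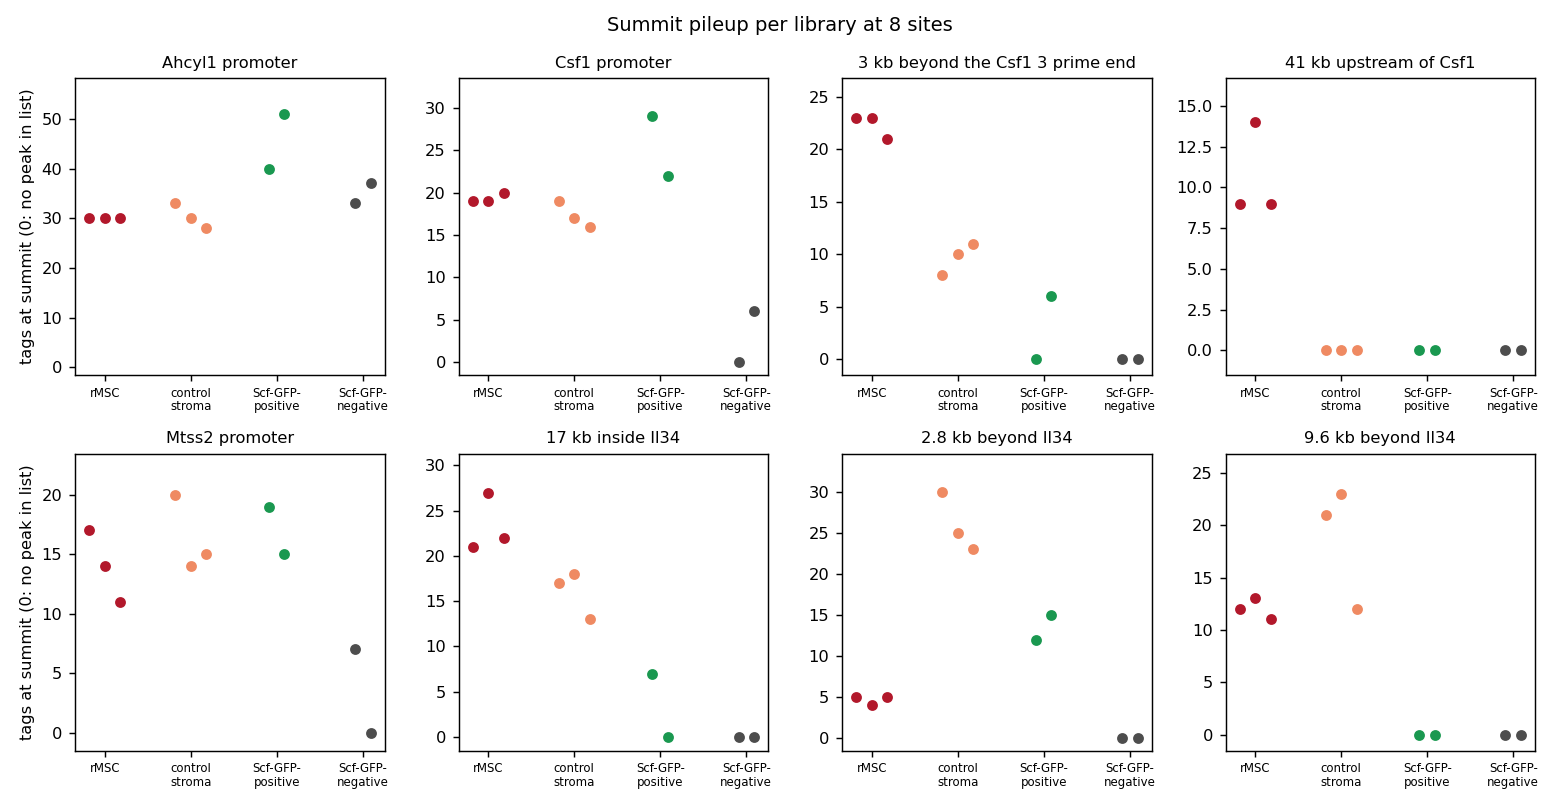
Tags at the summit (vertical axis) per library at 8 sites, Csf1 window above and Il34 window below, with 0 where the list held no peak. The Ahcyl1 promoter is present in all libraries at 28 to 51 tags, whereas the site 40941 bp upstream of Csf1 is listed in rMSC alone, and the site 2839 bp beyond Il34 has 4 to 5 tags in rMSC, against 23 to 30 in control stroma.

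The other genes of the CSF1R axis were counted in the same windows. Of 7 genes, Csf1 and Il34 included, 6 were tested. Between Scf-GFP-positive and Scf-GFP-negative stroma 3 were higher and 0 lower, Csf1, Il34 and Sdc1, where 13.2% of all loci were higher and 18.6% lower. The median log2 difference was 0.97 beside -0.22 over all loci. Csf1 and Il34, reported above, enter both the count and the median. Sdc1, which encodes syndecan-1, a binding partner of IL-34, had 7 and 6 summits in Scf-GFP-positive libraries, against 3 and 1 in Scf-GFP-negative libraries (1.61 ± 0.37, adjusted p = 0.0102, limma), and lost the call without Scf-GFP-positive replicate 1 (adjusted p = 0.0644, limma). The window of Csf1r, the receptor itself, which also reaches the neighbouring gene Pdgfrb, had 7 and 5 summits in Scf-GFP-positive libraries, against 3 and 7 in Scf-GFP-negative libraries, which overlap. In the Csf1r body equal-size lists held 1 summit in each rMSC library, none in control and Scf-GFP-positive libraries, and 1 and 0 in Scf-GFP-negative libraries, and with all deposited peaks every library but 1 held 1 or 2. Ptprz1, which encodes the other known receptor of IL-34, was too low to be tested. None of the 6 passed in any comparison with cultures, where 1.14% to 8.45% of all loci passed in a given direction.

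Of 16 genes of signalling below CSF1R, all tested, 1 was higher and 2 lower in Scf-GFP-positive than in Scf-GFP-negative stroma. Of all loci, 13.2% were higher and 18.6% lower in this comparison. The call of Pik3cd, 1 of the 2 lower, was lost in 13 of 26 alternatives. Socs3, an inhibitor of cytokine signalling, had 17 and 18 summits in Scf-GFP-positive libraries, against 7 and 6 in Scf-GFP-negative libraries (1.37 ± 0.16, adjusted p = 0.000464, limma). The call was lost with these 4 libraries alone (adjusted p = 0.0501). The median of the list was -0.14, beside -0.22 over all loci. Between rMSC and control stroma 0 of the 16 passed in either direction, where 1.53% of all loci were higher and 1.14% lower. Between control and Scf-GFP-positive stroma 0 were higher and 1 lower, where 5.91% of all loci were higher and 6.12% lower. The lower gene was Pik3r1, whose call was lost in 15 of 26 alternatives. Between rMSC and Scf-GFP-positive stroma 4 were higher and 2 lower, where 8.45% of all loci were higher and 7.35% lower. Among these, the call of Akt1 was lost in 17 and its sign turned in 1 of 26 alternatives, that of Sos1 was lost in 14 and that of Src in 10 of 26.

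Osteoclast formation needs CSF1 together with RANKL, and of 8 genes of osteoclast control 6 were tested, and 3 were higher and 0 lower in Scf-GFP-positive than in Scf-GFP-negative stroma, where 13.2% of all loci were higher. The call of Nfatc1, 1 of the 3, was lost in 16 of 26 alternatives. That of Tnfrsf11b, another of the 3, rested on few summits, given below. Tnfsf11, which encodes RANKL, the osteoclast-inducing ligand, had 9 and 9 summits in Scf-GFP-positive libraries, against 0 and 0 in Scf-GFP-negative libraries (adjusted p = 0.000154, limma). Tnfsf11 met the filter of a mean of 2 summits in large part through the Scf-GFP-positive libraries, the group where it was high. In rMSC it had 1, 3 and 1, fewer than in Scf-GFP-positive stroma (-2.26 ± 0.37, adjusted p = 0.00561, limma), and this call was lost with all deposited peaks (adjusted p = 0.0814, limma) or with these groups fitted alone (adjusted p = 0.0568). Control stroma had 3, 4 and 4.

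Tnfrsf11b, which encodes osteoprotegerin, the soluble decoy of RANKL, went the other way in rMSC. Between the sorted groups it was, like Tnfsf11, higher in Scf-GFP-positive stroma (1.95 ± 0.34, adjusted p = 0.0031, limma). This call rested on few summits, 1 and 2 in Scf-GFP-positive libraries, against 0 and 0 in Scf-GFP-negative libraries. Tnfrsf11b met the filter of a mean of 2 summits largely through the cultures, above all rMSC, where it was high. It had 8, 9 and 9 summits in rMSC, against 3, 4 and 2 in control stroma and 1 and 2 in Scf-GFP-positive stroma. The difference of rMSC over Scf-GFP-positive stroma was 2.24 ± 0.31 (adjusted p = 0.0029, limma). That of rMSC over control stroma was 1.43 ± 0.28 (adjusted p = 0.0352, limma), with no overlap of the libraries, but leaving out any single rMSC or control library ended the call, with adjusted p of 0.0691 to 0.114, and 14 of 25 alternatives ended it in all. Tnfrsf11a, the receptor RANK, had 3, 4 and 4 summits in rMSC and 2, 3 and 3 in control stroma, against 0 and 0 in Scf-GFP-positive stroma (adjusted p = 0.0035 for rMSC and 0.00749 for control stroma, limma). With 0 and 0 summits in Scf-GFP-positive stroma, Tnfrsf11a met the filter of a mean of 2 summits largely through the cultures. It could be tested in only part of the alternatives. For control stroma these were 13, and the call was lost in 2, with all deposited peaks in the window and in the gene body alone. For rMSC they were 14, and the call was kept in each. The other alternatives say nothing about this gene.

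Of 12 other myeloid growth factors and chemokines 9 were tested, and 3 were higher and 0 lower in Scf-GFP-positive than in Scf-GFP-negative stroma, where 13.2% of all loci were higher. Since Ccl2 and Ccl7 share their summits, these 3 genes are 2 windows. Ccl2, a monocyte chemoattractant had 7, 7 and 8 summits in rMSC, 11, 11 and 12 in control stroma, and 3 and 5 in Scf-GFP-positive stroma, against 0 and 0 in Scf-GFP-negative stroma (adjusted p = 3.62e-05 between the sorted groups, limma, and 0.0536 with these 4 libraries alone). The control libraries were the highest, by 1.43 ± 0.22 over Scf-GFP-positive stroma (adjusted p = 0.00488, limma). Kitl, the gene that the Scf-GFP label reports, had 9 and 3 summits in Scf-GFP-positive libraries, against 2 and 0 in Scf-GFP-negative libraries (2.37 ± 0.65, adjusted p = 0.0219, limma), a call lost without Scf-GFP-positive replicate 1 (adjusted p = 0.158) or Scf-GFP-negative replicate 2 (adjusted p = 0.119). Between rMSC and control stroma 0 of these 9 passed, where 1.53% of all loci were higher and 1.14% lower. Against Scf-GFP-positive stroma 2 were higher and 1 lower both in rMSC and in control stroma. The 2 were Ccl2 and Ccl7, which are 1 window, and the lower gene was Flt3l. The call of Ccl2 was lost in 7 of 24 alternatives for rMSC and in 0 of 24 for control stroma. That of Flt3l was lost in 6 of 24 for rMSC and in 15 of 24 for control stroma. Of all loci, 8.45% were higher and 7.35% lower for rMSC, and 5.91% and 6.12% for control stroma.

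The marker lists set these genes beside the cell types that a sort could hold. Between Scf-GFP-positive and Scf-GFP-negative stroma 7 of 10 tested stromal markers were higher and 0 lower, with a median of 1.93. Of 12 blood markers 0 were higher and 3 lower, of 10 tested macrophage markers 1 was higher and 2 lower, and of 5 tested endothelial markers 0 passed, where 13.2% of all loci were higher and 18.6% lower. Between rMSC and control stroma 0 markers of these 4 lists passed, where 1.53% of all loci were higher and 1.14% lower. Of the 12 stromal markers, 11 had a summit in the body in rMSC and 11 in control stroma, with body sums of 32 to 40 and of 40 to 51. The exception in both was Lepr, which encodes the leptin receptor and marks the stroma that makes SCF. Of the 17 macrophage markers, 7 had a body summit in rMSC and 5 in control stroma.

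Across the 10 libraries the summit counts of Csf1 and Il34 had a Pearson correlation of 0.921 on the log2 scale. The libraries share their groups, and both windows are low in the Scf-GFP-negative pair. The 5 loci most like Csf1 in pattern were Zfp474 (0.992), Sorbs3 (0.990), Parva (0.986), Id2 (0.985) and Flrt2 (0.983). Those most like Il34 were Prss42 (0.993), Dlc1 (0.988), Ggact (0.986), Pld1 (0.986) and Ly86 (0.982). A correlation at or above that between the 2 genes was reached by 309 loci for Csf1 and by 269 for Il34, so neither was among the closest of the other.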

How the data were processed

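Members, lists and tests were chosen with earlier results of these data known. ATAC-seq libraries were made from 2700 to 5000 sorted cells each, per the labels' protocols. The submitters' processing notes name BWA, MACS2 and mm10, with versions not given in the sources used here. A single peak list per library was deposited. It holds, for each peak, a fold enrichment (a ratio to background set by the authors), the authors' −log10 of the p-value and the q-value, and a deposited score of 10 times the −log10 q. Pileups at summits were computed from fold and background and came out whole within 0.01 for 100% of peaks with folds under 30. Read depth is unknown.

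Chromosomes 1 to 19 and X entered. Summits were counted per protein-coding gene with 50 kb on either side in lists of the 39912 peaks with the highest −log10 p, with ties broken at random. Loci averaging 2 summits or more went into limma 3.58.1 (R 4.3.3) with a trend on log2(summits + 0.5), 4 groups in 1 fit, two-sided, Benjamini-Hochberg over 15430 loci, threshold 0.05. The fit was tested on simulated data. Sites are peaks overlapping by 1 base or more, merged over all deposited lists. The rule for named genes took the members, their window neighbours, up to 4 passing genes per list, direction and comparison, and the 5 loci nearest in pattern. Sites were named where at least 8 libraries, or every library of 1 group and none of another, carried them; other sites named were chosen after their values were seen. RefSeq promoter sequences were matched by symbol and found for 1 of the 2 members, Csf1. Alternatives covered list length, window, filter, pseudocount, strictness, bases covered, libraries in the fit, ties, flow cell and left-out libraries.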

Additional observations from a re-analysis of the deposited data

How the results depend on the processing

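Csf1 and Il34 kept more summits in Scf-GFP-positive than in Scf-GFP-negative stroma under all 26 alternatives, and the call was lost only with these 4 libraries fitted alone (2.44, adjusted p = 0.0708 for Csf1, and 2.05, adjusted p = 0.0964 for Il34, limma). Leaving out 1 library gave 2.07 to 2.81 for Csf1 and 1.63 to 2.48 for Il34. The other differences lay near 0, and their sign was not stable. For control over Scf-GFP-positive stroma, Csf1 turned to 0.42 with all deposited peaks, 0.43 with −log10 q of at least 6, 0.045 with the replicate block, 0.010 with flow cell as a factor, 0.16 with tied peaks kept, 0.30 with them left out and 0.73 in the gene body with all deposited peaks, and ranged over -0.41 to 0.32 with 1 library left out. Il34 turned to 0.00335 with 10 kb flanks, 0.23 with −log10 q of at least 6 and 0.034 without tied peaks. For rMSC over control stroma, Csf1 passed only by bases covered (0.59), and Il34 turned to 0.12 with all deposited peaks, 0.16 by bases and 0.040 without tied peaks. For rMSC over Scf-GFP-positive stroma, Csf1 passed by bases (0.53) and in the body with all deposited peaks (1.90), and ranged over -0.19 to 0.54 with 1 library left out. Il34 turned to 0.14 with −log10 q of at least 6, 0.00973 by bases and 0.074 without tied peaks. The causes were not tested.

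Of all loci, 4914 were called between the sorted groups (2042 higher and 2872 lower, but 2594 higher and 473 lower with all deposited peaks, and 467 with these libraries alone), 1857 for control over Scf-GFP-positive stroma (381 to 3800 over the alternatives), 412 for rMSC over control stroma (37 to 2408, 40 with control replicate 2 left out) and 2438 for rMSC over Scf-GFP-positive stroma (609 to 4112). Same-numbered libraries showed no common deviation from their group means over loci (correlations of -0.0181 to 0.0255 over 13 pairs). In groups of 2 libraries these deviations mirror each other, so the 13 pairs are not independent. Whether same-numbered libraries share an animal, sort or culture cannot be told from this. The replicate block left 44 calls for rMSC over control stroma. Over all deposited peaks, the sites of every Scf-GFP-positive and no Scf-GFP-negative library were 8 for Csf1 and 9 for Il34, but 15 and 16 without Scf-GFP-positive replicate 2, and 10 and 18 without replicate 1. The median shift over all loci reached 0.26 with all deposited peaks (rMSC over Scf-GFP-positive stroma) and -0.20 by bases (control over Scf-GFP-positive stroma). Between the sorted groups it was -0.22 in the main fit, -0.41 with tied peaks left out and 0.33 in the gene body with all deposited peaks. A site absent from a list may lie under the detection limit, which is unknown for each library.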
